A study of Mus musculus with 18 samples.

Results

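The 4 Hox clusters were described here as 1058 bins of 500 bp of a genome-wide table of DNA methylation in mouse hindlimb muscle and splenic T cells, out of 5128560 bins in all. The bins were chosen by position alone, in mm10 coordinates: 230 bins of HoxA on chromosome 6, 360 of HoxB on chromosome 11, 258 of HoxC on chromosome 15 (of 260 in the interval) and 210 of HoxD on chromosome 2. They held all 39 Hox genes, 11 in HoxA, 10 in HoxB and 9 in each of HoxC and HoxD. Methylated DNA was captured with the methyl-CpG-binding domain of MBD2 and sequenced (MBD-seq), so the level of a bin is a count of reads from captured fragments, divided by the size factor of the library. It grows with methylation and with the number of methylated CpGs in the fragment, and is not a percentage of methylation.

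The mice were female C57BL/6J of 2, 20 and 28 months, and DNA of 3 mice per age was pooled before shearing, so each tissue and age was 1 library (6 libraries). The T cells were enriched from spleen on magnetic columns by removal of other cells. No agent or allele separated the groups, which differed in tissue and age only. Hindlimb muscle holds other cell types beside fibres, so a level is a mixture over cells. Spleen and muscle were taken from the same mice, so the muscle and T-cell pools of an age are paired. Exact two-sided permutation tests on 6 libraries reach at best p = 0.25 between tissues swapped within ages, 0.10 between tissues over all libraries and 0.056 between ages permuted within both tissues, and within 1 tissue each age is 1 library with no replicate error. Only the first of these tests keeps the paired pools together. Values are therefore given with counting intervals, which cover counting error only since both mates of a pair and PCR copies were counted, and tissue differences with the SD over the 3 ages. The labels list 2 captures of muscle per age, and the muscle columns name the age only, so it is not known whether a column holds the first capture, the repeated one or both. No spread between captures is given.

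Hox genes encode homeodomain transcription factors that set position along the body axis and the limb, and lie in 4 clusters in which order along the chromosome follows order along the body, with paralogs 1 to 4 used towards the head and paralogs 9 to 13 towards the tail and the distal limb. Their start sites lie in CpG islands, which are usually unmethylated and, where a gene is silent, are often held by Polycomb proteins. Cells keep part of this positional pattern into adult life.

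The clusters were rich in CpG. A Hox bin held 11.9 CpGs on average against 4.17 over all bins, and 19.3% of Hox bins had 20 or more CpGs against 1.09% of all bins. HoxA was the densest cluster, with 14.4 CpGs per bin and 26.5% of bins at 20 or more. HoxC had the fewest, with 10.3. Repeats covered 18.0% of Hox sequence against 34.5% of all bins. The sequences of 4 windows of 200 bases, each the stretch of its bin with the most CpGs on the plus strand of mm10, show what was captured, with CpGs in capitals. They come from the bins with the highest level in 2 of the long runs described below, the highest HoxC bin and the Hoxa11 start bin, which had no read in 2-m T cells and is described with the age differences.
Hoxa11os, higher in muscle (chr6:52248246-52248445, 9 CpGs): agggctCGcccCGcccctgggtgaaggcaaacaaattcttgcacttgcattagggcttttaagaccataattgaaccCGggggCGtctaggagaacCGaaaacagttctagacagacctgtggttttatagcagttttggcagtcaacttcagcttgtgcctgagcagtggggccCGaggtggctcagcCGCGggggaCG
Hoxb3 intron, higher in T cells (chr11:96325601-96325800, 11 CpGs): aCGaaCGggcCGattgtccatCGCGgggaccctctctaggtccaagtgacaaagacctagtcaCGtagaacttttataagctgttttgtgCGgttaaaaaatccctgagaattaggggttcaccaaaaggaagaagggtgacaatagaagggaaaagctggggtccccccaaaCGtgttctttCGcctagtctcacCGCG
Hoxc12 start, highest bin of HoxC (chr15:102937089-102937288, 29 CpGs): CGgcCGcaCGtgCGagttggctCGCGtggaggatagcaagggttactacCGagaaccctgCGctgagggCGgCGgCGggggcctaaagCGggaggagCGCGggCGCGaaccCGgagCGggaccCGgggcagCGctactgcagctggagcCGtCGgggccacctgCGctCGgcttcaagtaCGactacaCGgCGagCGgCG
Hoxa11 start, no read in 2-m T cells (chr6:52246001-52246200, 16 CpGs): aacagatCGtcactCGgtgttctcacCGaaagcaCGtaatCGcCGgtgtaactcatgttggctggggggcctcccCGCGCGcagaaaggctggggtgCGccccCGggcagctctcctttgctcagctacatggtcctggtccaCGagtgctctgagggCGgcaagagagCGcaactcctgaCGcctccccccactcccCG
The Hoxc12 window is a dense CpG island with many CpGs only a few bases apart. The Hoxa11os bin had 0, 1.22 and 0 in T cells.

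Of the 4 clusters HoxA had the highest mean level in every library. Its mean level per bin was 21.9 (95% counting interval 21.3 to 22.5), 20.0 and 15.4 in 2-m, 20-m and 28-m muscle. In T cells it was 23.7, 28.7 and 32.8 at the same ages. HoxC was lowest in every library but 20-m muscle, with 8.56, 10.9 and 7.79 in muscle and 4.08, 9.45 and 12.7 in T cells. HoxB was 12.2, 10.5 and 11.7 in muscle and 18.1, 24.6 and 23.4 in T cells. HoxD was 11.4, 18.5 and 14.0 in muscle and 8.75, 13.3 and 20.0 in T cells. The T-cell mean of each cluster was higher at 28 than at 2 months, whereas in muscle only HoxD was, and in HoxB the 20-m T cells were the highest of the 3 ages.

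**Figure D1:**
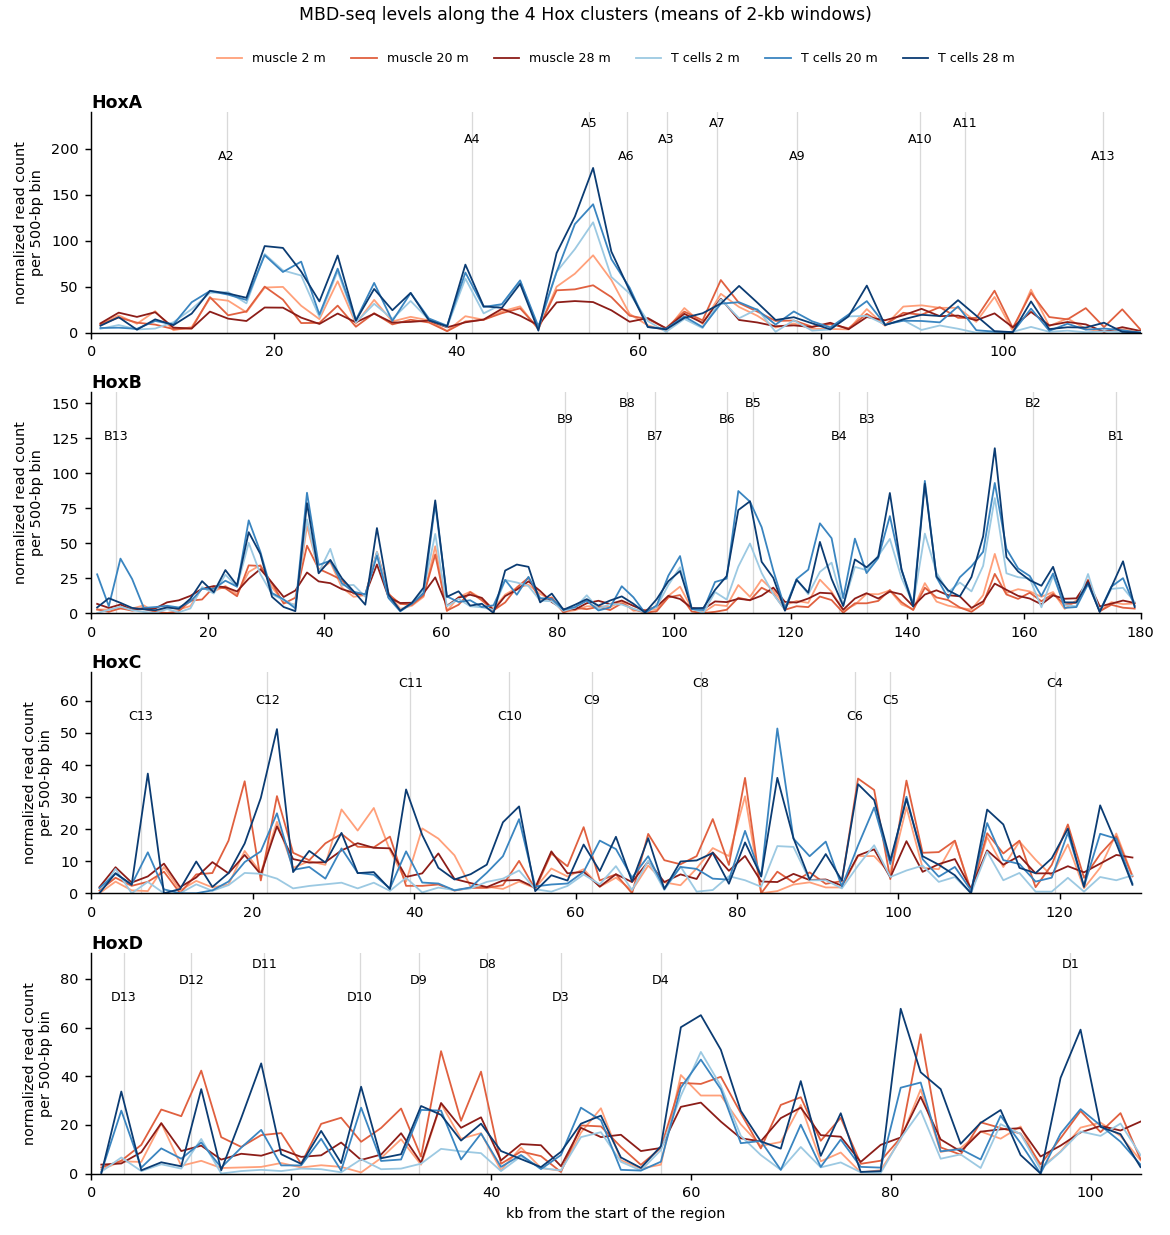
Mean normalized read count per 500-bp bin in windows of 2 kb (y axis) against distance in kb from the start of each region (x axis), 1 line per library, red for muscle and blue for T cells, darker with age; grey lines mark the outermost start of the Hox genes named. The highest T-cell peak lies beside the Hoxa5 start, and the muscle lines lie above the T-cell lines at the Hoxa11 to Hoxa13 end of HoxA at 2 months.

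The libraries differed in ways that touch all these values. They held 135254786 to 141889499 reads in muscle and 188758989 to 200456498 in T cells. The 28-m muscle library was flat: 0.640% of all bins had no read, against 10.3% and 12.1% in the younger muscle libraries, and its values were compressed. In T cells the share of bins without a read was 21.3%, 24.8% and 30.3% with age. Scaling each library to the same sum moved its median log2 level by 0.42 to 0.86 in muscle and by -0.19 to -0.42 in T cells, so signs of differences between libraries depend on the scaling and values are also given relative to the mean over all bins. The labelled tissues were checked on start-site windows of marker genes. Of 8 muscle fibre genes, 4 (Acta1, Ckm, Myh4 and Pygm) were lower in muscle and 0 in T cells by the rule below. Of 8 T-cell genes, 2 (Cd3g and Cd5) were lower in T cells and 0 in muscle. The median over the 8 T-cell windows in T cells was 8.97, 23.3 and 31.7 with age, and Lck, the kinase of the T-cell receptor, went from 5.75 at 2 months to 20.7 and 38.8, so the oldest T-cell libraries were less unlike muscle (43.1, 47.9 and 27.9) at these genes. Over 5 B-cell genes the T-cell median was 11.2, 6.49 and 8.37. The part of cell composition in the age values below was not tested. In muscle RNA of the same mice, summed T-cell marker levels were 32.1 to 80.1 normalized counts and B-cell levels 16.6 to 181, against 4862570 to 6722960 for muscle fibre genes.

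Does the methylation of the clusters differ between muscle and T cells? HoxB was the cluster with a negative difference. Its bins were on average 0.36 lower in muscle than in T cells on the log2(level + 1) scale (-0.36, SD 0.45 over 3 ages; -0.16, -0.88 and -0.05 at 2, 20 and 28 months), while over all bins muscle was higher by 0.55 (SD 0.43). HoxA differed by 0.15 (SD 0.28), HoxC by 0.50 (SD 0.25) and HoxD by 0.52 (SD 0.14). In HoxC and HoxD this difference was larger than its SD over ages and in HoxA and HoxB it was not, and in HoxB it was -0.10 without the 20-m libraries. Relative to all bins the difference was -0.91 (SD 0.47) in HoxB, -0.40 (SD 0.69) in HoxA, -0.05 (SD 0.64) in HoxC and -0.03 (SD 0.52) in HoxD. The HoxB value was negative at each age (-0.38, -1.26 and -1.09) and was -0.90 with libraries scaled to the same sum and -0.86 after quantile normalization. On this relative scale the spread over ages was larger than the difference in HoxA, HoxC and HoxD. The exact permutation test with tissues swapped within ages, which keeps the paired pools together, gave p = 0.25 for HoxB on both scales, the smallest it can give, and 0.25 to 1 for the other clusters. Over all 6 libraries, which ignores the pairing, the exact permutation p for HoxB was 0.10 on the relative and 0.20 on the deposited scale, and 0.20 to 1 for the other clusters. Neither scale takes account of the higher CpG number of Hox bins. Relative to the median of bins of equal CpG number, the tissue difference was -0.32 in HoxB, 0.33 in HoxA, 0.39 in HoxC and 0.65 in HoxD. The HoxB difference was then still negative but smaller, and that of HoxA was positive.

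By bin, a bin was counted as higher in a tissue when its mean log2 difference over the 3 ages was at least 1 (2-fold) and all 3 libraries of that tissue lay above all 3 of the other. Of 1058 Hox bins, 181 (17.1%) were higher in muscle and 160 (15.1%) in T cells, whereas over all bins 17.0% were higher in muscle and 4.31% in T cells. The split by the same-sum scaling was 375 and 54 (42.7% and 0.368% of all bins), and by quantile normalization 63 and 229 (4.51% and 5.31%). So the share of Hox bins higher in T cells was above that of all bins under each, without regard to CpG number. HoxA had 45 bins higher in muscle and 46 in T cells. HoxB had 28 and 81. HoxC had 63 and 22, and HoxD 45 and 11. Some of these counts rose by over 1.5 times when 1 age was left out, which also loosens the rule, since fewer libraries must lie apart. Without the 2-m libraries the muscle-higher count was 45 in HoxB and 87 in HoxD and the T-cell-higher count 40 in HoxC and 25 in HoxD, and without the 20-m libraries HoxB had 56 muscle-higher bins. In the 204 bins with 20 or more CpGs, 6 (2.94%) were higher in muscle and 65 (31.9%) in T cells, against 2.85% and 28.2% of all such bins, a share near the background. With 10 to 19 CpGs the shares were 15.4% and 22.3% against 1.45% and 25.6%. With 5 to 9 CpGs they were 20.7% and 9.76% against 5.94% and 7.76%, and with 0 to 4 CpGs 24.1% and 3.74% against 22.9% and 0.637%. In 1598 bins of the 100-kb flanks of the 4 regions, 268 (16.8%) were higher in muscle and 84 (5.26%) in T cells.

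The tissue difference varied along the clusters, and it changed sign with paralog number most clearly in HoxA. Each bin was assigned to the Hox gene whose coding centre was nearest. Of 356 bins nearest to paralogs 1 to 4, 44 (12.4%) were higher in muscle and 83 (23.3%) in T cells. Of 219 bins nearest to paralogs 5 to 8 the counts were 24 (11.0%) and 45 (20.5%). Of 483 bins nearest to paralogs 9 to 13 they were 113 (23.4%) and 32 (6.63%), and of all bins in the genome table they were 17.0% and 4.31%. The 3 classes held 10.6, 13.6 and 12.1 CpGs per bin on average. Of all bins with 10 to 19 CpGs the shares were 1.45% and 25.6%, and the T-cell share near paralogs 1 to 4 is near the latter. In HoxA the bins near Hoxa9 to Hoxa13 were 0.83 higher in muscle (SD 0.49; 1.32, 0.84 and 0.33 with age; 31 bins against 4). By gene the mean was 1.91 near Hoxa11 and 1.24 near Hoxa13, but 0.09 near Hoxa9 and -0.25 near Hoxa10. The bins near Hoxa5 to Hoxa7 were on average lower in muscle (-0.24, SD 0.19; 4 bins against 13). Near Hoxa5 the mean was -0.89 and near Hoxa6 -0.28, but near Hoxa7 it was 0.40 (0.71, 0.42 and 0.07 with age; 2 bins against 0). In HoxB the bins near Hoxb1 to Hoxb4 had the most negative muscle minus T-cell difference of the classes (-0.90, SD 0.42; 4 bins against 49), whereas the 177 bins near Hoxb9 and Hoxb13, most of them in the long stretch between these genes, differed by 0.14 (SD 0.39; -0.28 at 20 months; 22 against 11). On the deposited scale HoxC and HoxD showed no such change of sign. In HoxD the bins near Hoxd1 to Hoxd4 were 0.57 higher in muscle (SD 0.14), those near Hoxd8 0.08 (SD 0.19) and those near Hoxd9 to Hoxd13 0.61 (SD 0.26). In HoxC the values were 0.67 near Hoxc4, 0.22 near Hoxc5 to Hoxc8 and 0.60 near Hoxc9 to Hoxc13. The middle class of each lay below the mean of 0.55 over all bins, and the outer classes above it.

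**Figure D2:**
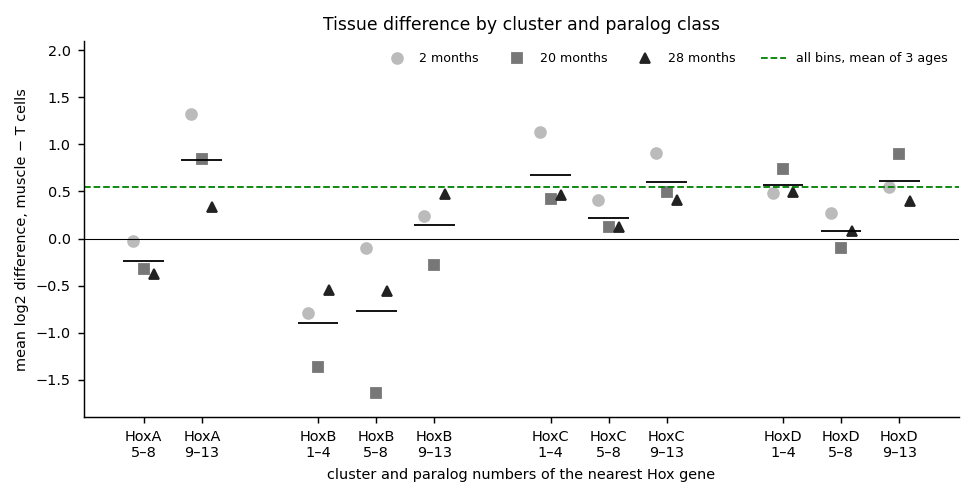
Mean log2 difference in level, muscle minus T cells (y axis), in 11 groups of bins by cluster and paralog number of the nearest Hox gene (x axis), with 1 point for each age and a bar at the mean of the 3 ages; the dashed line is the mean over all bins, 0.55. Of the groups shown, the points of HoxA paralogs 5 to 8 and HoxB paralogs 1 to 8 lie below 0 at each age, and those of HoxA paralogs 9 to 13 above 0.

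By position within genes, 3 of 117 bins at Hox start sites (2.56%) were higher in muscle and 34 (29.1%) in T cells. Start-site bins were the most CpG-dense, at 27.2 CpGs on average, and these shares are near the 2.85% and 28.2% of all bins with 20 or more CpGs. Of 98 other bins with coding sequence (22.4 CpGs on average), 12 (12.2%) were higher in muscle and 25 (25.5%) in T cells, and the T-cell share is again near that of CpG-dense bins. The remaining groups were sparser in CpG, with means of 10.3, 8.32 and 7.98. Of 158 bins with other exon sequence the counts were 38 (24.1%) and 25 (15.8%). Of 266 intron bins they were 46 (17.3%) and 51 (19.2%), and of 419 bins between genes 82 (19.6%) and 25 (5.97%), against 17.0% and 4.31% of all bins and 5.94% and 7.76% of all bins with 5 to 9 CpGs. For the other exon bins the class of 10 to 19 CpGs is nearer, with 1.45% and 25.6% of all such bins. The median level of start-site bins in 2-m muscle was 1.82.

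Gene by gene, over the bins within 500 bases of the outermost start, 0 of 39 Hox start windows were higher in muscle and 13 in T cells, against 8.26% and 13.3% of the windows of 20923 genes. The Hox windows were CpG-dense, with a median of 75 CpGs. Of all single bins with 20 or more CpGs, 2.85% were higher in muscle and 28.2% in T cells. The 13 were Hoxa4, Hoxa5, Hoxa6, Hoxa13, Hoxb1, Hoxb3, Hoxb4, Hoxb13, Hoxc10, Hoxc11, Hoxc13, Hoxd1 and Hoxd13. With each library scaled to the same sum the count was 1 of 39, where 0.368% of all bins were higher in T cells. The share of all gene windows under this scaling was not computed. The mean difference was -0.69 (SD 0.83) in HoxA, -1.54 (SD 0.92) in HoxB, -1.01 (SD 0.96) in HoxC and -1.49 (SD 0.71) in HoxD. The 4 genes named in each cluster are those with the most positive and the most negative difference. Log2 differences of windows with a library at 0 depend on the added 1.

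In HoxA, the Hoxa4 window had 0.91, 1.96 and 2.12 in muscle at 2, 20 and 28 months and 7.78, 11.8 and 26.0 in T cells. Hoxa13, a gene of the distal limb, had 0.61, 1.40 and 0.42 in muscle and 2.03, 6.08 and 14.1 in T cells. For both genes every T-cell library lay above every muscle library, if narrowly for Hoxa13 at 2 months. Hoxa10, a gene of the hindlimb and lower trunk, went the other way, most of all at 2 months, with 23.4, 13.8 and 19.3 in muscle and 0, 12.2 and 18.1 in T cells. Hoxa7 had 46.4, 61.7 and 42.3 in muscle and 42.0, 35.7 and 31.3 in T cells, so the groups were apart only just. Over the mean of 6 libraries Hoxa5 had the highest start window of all 39, with 69.4, 30.0 and 32.3 in muscle and 116, 127 and 158 in T cells.

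In HoxB, the Hoxb5 window had 2.73, 0 and 1.27 in muscle and 1.69, 58.4 and 51.1 in T cells, so the tissues overlapped at 2 months and not later. Hoxb13, a posterior gene set apart from the rest of the cluster, had 0, 0.56 and 1.70 in muscle and 3.38, 18.7 and 10.6 in T cells. The smallest differences of HoxB were those of Hoxb9 and Hoxb8. Hoxb9 was low everywhere, with 0.61, 0.56 and 3.40 in muscle and 1.35, 2.84 and 2.20 in T cells. Hoxb8 had 10.3, 11.2 and 10.8 in muscle and 10.1, 27.6 and 15.4 in T cells.

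In HoxC, the Hoxc13 window had 0, 1.68 and 3.61 in muscle and 4.74, 17.4 and 48.0 in T cells. Hoxc11 had 3.03, 0 and 3.40 in muscle and 4.40, 11.8 and 53.8 in T cells. In both genes the 28-m T cells stood far above the others. Hoxc4 had 4.85, 10.4 and 7.22 in muscle and 0.68, 3.24 and 12.8 in T cells. Hoxc8 had 5.46, 25.5 and 7.01 in muscle and 0, 13.4 and 22.0 in T cells, and the 2 tissues overlapped at both genes.

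In HoxD, the Hoxd1 window had 0.30, 3.93 and 3.82 in muscle and 7.11, 26.8 and 78.4 in T cells. Hoxd10 had 0.61, 6.17 and 5.31 in muscle and 6.09, 31.6 and 45.8 in T cells, where 2-m T cells lay just below 20-m muscle. Hoxd8 had 6.06, 10.9 and 9.77 in muscle and 5.41, 6.08 and 20.7 in T cells, and Hoxd4 had 3.94, 8.42 and 10.2 against 12.9, 6.49 and 15.0, and at both the tissues overlapped.

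**Figure D3:**
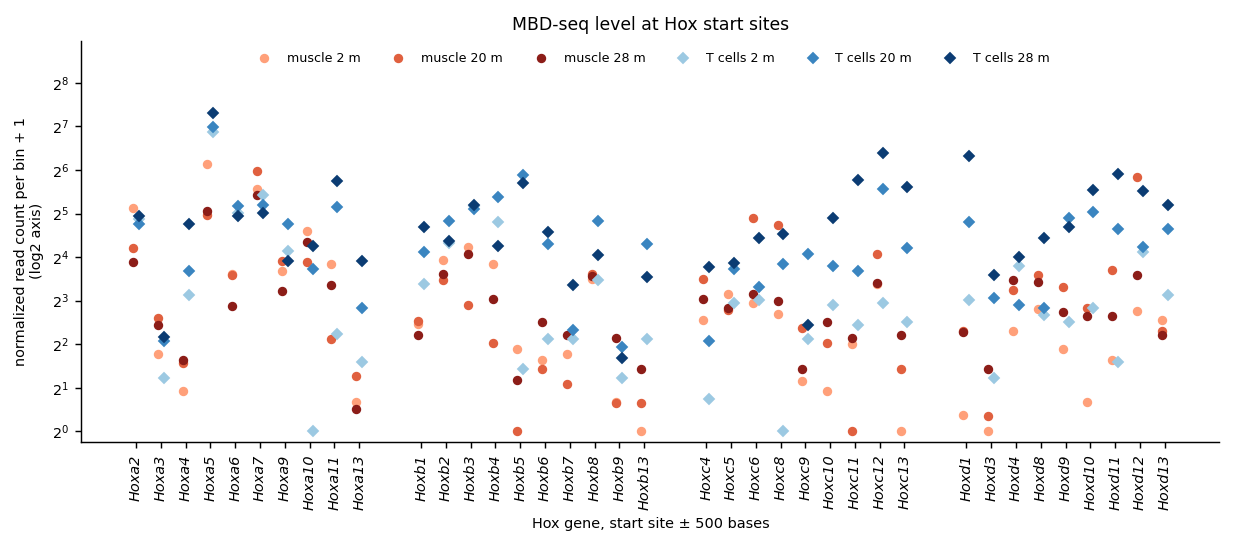
Mean normalized read count per bin plus 1 on a log2 axis (y axis) in the bins within 500 bases of the start of the Hox genes named (x axis), circles for muscle and diamonds for T cells, darker with age, 1 library per point. At most genes the 28-m T-cell point lies highest, as at Hoxd1 (78.4) and Hoxc12 (83.3), and Hoxa5 has the highest levels in T cells.

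RNA of these genes was measured in the same muscles, unpooled (9 libraries), and is given per kb of the longest transcript. Hoxc10 was by far the highest, at a median of 1393 (1222 to 1712 over the 9 libraries), followed by Hoxd8 (425), Hoxa10 (266), Hoxd9 (253) and Hoxc9 (166), 19 of 39 genes had a median of at least 10, and over the 39 genes the muscle start-site level and the RNA level had a Spearman rho of 0.08.

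Adjacent bins higher in the same tissue formed runs of up to 4 kb. They are named by the same values that chose them, so their folds are descriptions. In muscle-higher runs of 2 or more bins, HoxA had 12, HoxB 6, HoxC 16 and HoxD 10. In T-cell-higher runs the counts were 13, 20, 5 and 1. The longest muscle-higher run, chr6:52247001-52250500, had 7 bins and 78 CpGs and lay across Hoxa11os, the antisense transcript of Hoxa11, beside the Hoxa11 start. Its mean level was 26.4, 33.9 and 16.9 in muscle and 0.29, 1.04 and 1.32 in T cells. It had 671 reads in muscle against 15 in T cells, a 29.1-fold difference in level (95% counting interval 17.5 to 52.3), the clearest on a long stretch. Of 9 muscle-higher runs tied at 4 bins, which held 10 to 45 CpGs, the 3 with the largest tissue difference are named here. In HoxC, chr15:102940001-102942500 (5 bins, 11 CpGs, between genes) had 4.00, 5.56 and 8.03 in muscle against 0.20, 0.49 and 0.53 in T cells. The run chr15:102922501-102924500 (4 bins) within Hoxc13 had 8.87, 8.84 and 11.8 in muscle against 0, 0.61 and 0 in T cells, a ratio of 48.5 that rests on 2 T-cell reads (13.2 to 404). The run chr15:102951001-102953000 (4 bins, between genes) had 13.4, 17.7 and 14.0 against 0.76, 1.52 and 1.32. In HoxD, chr2:74676501-74678500 (4 bins), which reaches an exon of Hoxd12, had 2.50, 14.7 and 4.46 in muscle and no read in the 3 T-cell libraries, at least 24.4-fold higher in muscle against a floor of 3 reads over the T-cell group.

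The 5 longest T-cell-higher runs had 6 to 8 bins, and 4 of them lay in HoxB. The longest, chr11:96325001-96329000, had 8 bins and 96 CpGs in an intron of Hoxb3. Its level was 16.0, 15.5 and 16.3 in muscle and 54.4, 64.8 and 72.7 in T cells, a 4.01-fold difference (3.61 to 4.46) with no overlap and little spread over the muscle ages. The run chr11:96332001-96335000 (6 bins) in the same gene had 19.3, 18.9 and 15.0 in muscle and 55.3, 79.5 and 77.8 in T cells. The run chr11:96343501-96346500 (6 bins, 154 CpGs) reached coding exons of Hoxb3, with 38.2, 25.5 and 18.1 against 71.9, 86.4 and 109. From the end of Hoxb6 into Hoxb5, chr11:96301001-96304000 (6 bins, 124 CpGs) had 14.9, 10.2 and 9.03 in muscle and 52.4, 86.6 and 80.2 in T cells, the largest fold of the 5 (6.42, 5.60 to 7.39). It reached an exon of Hoxb6 and took in the start of Hoxb5 with part of its coding sequence. It also overlapped the Hoxb5os antisense transcript outside its exons. In HoxA, chr6:52203001-52206500 (7 bins, 203 CpGs) held the Hoxa5 start and coding exons of Hoxa5 and Hoxa6. Its level was 82.4, 53.5 and 33.6 in muscle and 121, 145 and 174 in T cells. The mean over all bins with 20 or more CpGs went the same way, at 56.5, 43.1 and 22.9 in muscle and 64.0, 83.5 and 101 in T cells.

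**Figure D4:**
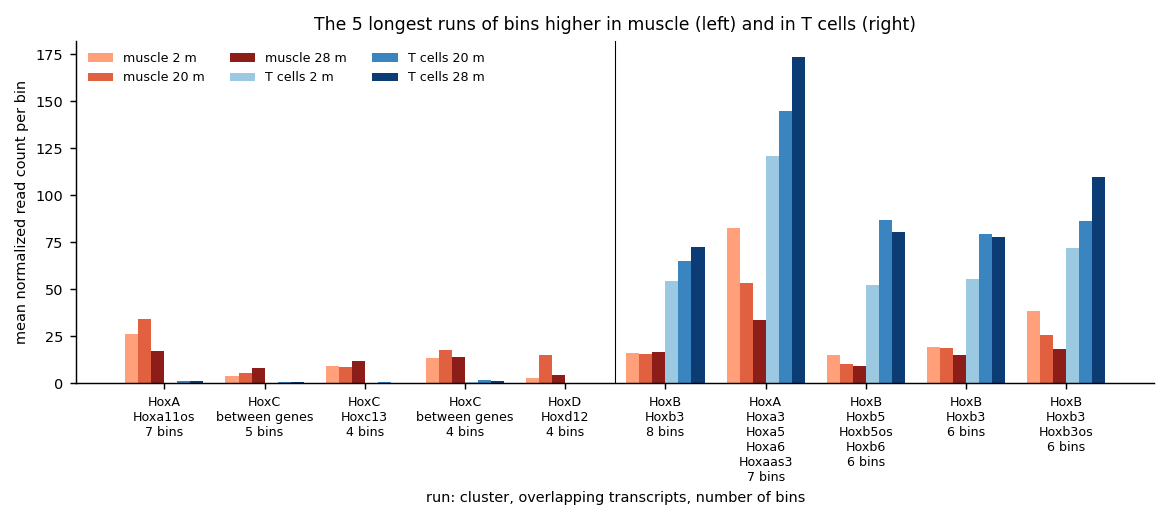
Mean normalized read count per bin (y axis) in the 5 longest runs of adjacent bins higher in muscle (left) and in T cells (right), ties in length taken by the larger tissue difference, with cluster, overlapping transcripts and number of bins below (x axis), 1 bar per library. T-cell bars of the muscle-higher runs shown lie at or below 1.52, while other runs tied at 4 bins reached 10.9, and the Hoxa5 run reaches 174 in 28-m T cells.

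The highest bin of each cluster was not the same kind of place. In HoxA it was chr6:52205501-52206000 (21 CpGs) in the Hoxa5 run, with 128, 116 and 36.3 in muscle and 133, 179 and 242 in T cells. In HoxB it was chr11:96248501-96249000 (21 CpGs), between genes in the stretch between Hoxb13 and Hoxb9, with 92.8, 91.8 and 32.5 in muscle and 144, 185 and 226 in T cells. In HoxD it was chr2:74723001-74723500 in an exon of Hoxd4, with 63.7, 72.4 and 38.9 in muscle and 58.9, 60.8 and 131 in T cells. In HoxC it was the Hoxc12 start, chr15:102937001-102937500 (54 CpGs), with 16.4, 35.4 and 16.6 in muscle and 10.2, 96.1 and 169 in T cells. The Hoxc12 bin was the only one of the 4 in which 2-m T cells were the lowest library.

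How did the levels differ with age within each tissue? In T cells the clusters were higher at 28 than at 2 months by 0.61 (HoxA), 0.30 (HoxB), 0.86 (HoxC) and 0.89 (HoxD) on the log2 scale, whereas over all bins the value was -0.17. Relative to all bins these were 0.78, 0.47, 1.03 and 1.06, and 0.69, 0.41, 1.00 and 0.99 relative to all bins after same-sum scaling. Same-sum scaling alone gave 0.34, 0.065, 0.65 and 0.64, so HoxB was then near 0. Over both tissues, with ages permuted within each, the exact permutation p of the 28-m minus 2-m difference was 0.056 for HoxC and HoxD, the smallest possible, 0.11 for HoxA and 0.33 for HoxB on the deposited scale, and 0.22 to 0.89 relative to all bins. Ages were permuted separately in the tissues, which ignores the pairing of the pools, so these p can be too small. At 20 months the differences from 2 months were 0.40, 0.48, 0.69 and 0.57, and 0.17, 0.24, 0.50 and 0.35 under same-sum scaling alone. Of 1058 bins, 353 (33.4%) were over 2-fold higher at 28 than at 2 months and 125 (11.8%) lower, against 10.7% and 21.6% of all bins. At 20 months 328 (31.0%) were higher and 111 (10.5%) lower, against 12.9% and 18.3%.

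In T cells this age difference was largest in the CpG-dense bins, at 1.94 in Hox bins with 20 or more CpGs against -0.11 in those with 0 to 4. Of the 204 Hox bins with 20 or more CpGs, 139 (68.1%) were over 2-fold higher at 28 months, against 25.8% of all such bins, and their median level was 6.09, 18.3 and 29.1 at 2, 20 and 28 months (all such bins: 12.2, 28.0 and 48.9). With libraries scaled to the same sum the count was 119 (58.3% against 19.4%). In HoxD it was 42 of 44 bins and in HoxC 37 of 44, whereas in HoxA it was 34 of 61 and in HoxB 26 of 55. In Hox bins with 0 to 4 CpGs the T-cell median was 2.03, 2.43 and 1.32. The flanks held 37 bins with 20 or more CpGs, and 25 (67.6%) of them were over 2-fold higher, a share near that of the clusters. The T-cell marker windows were higher with age as well, as given above.

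**Figure D5:**
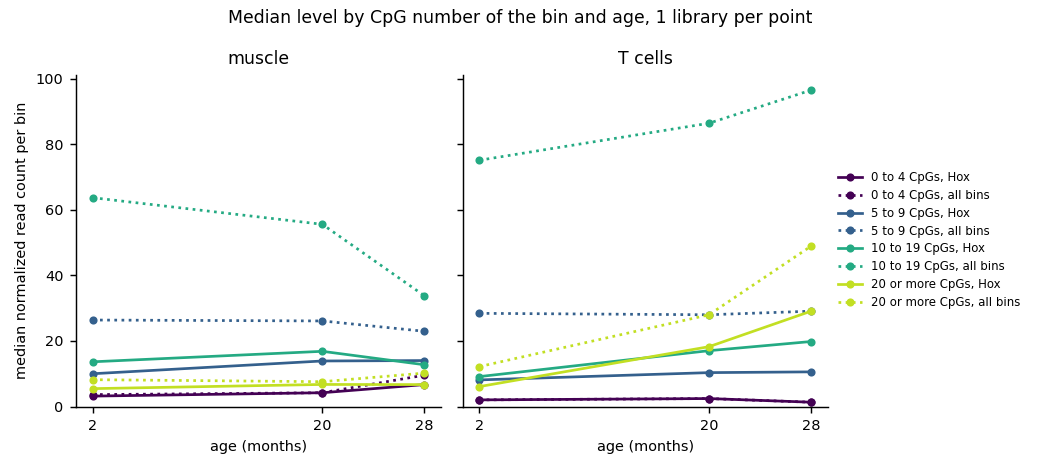
Median normalized read count per bin (y axis) against age in months (x axis) in muscle (left) and T cells (right), for bins with 0 to 4, 5 to 9, 10 to 19 and 20 or more CpGs; solid lines are Hox bins and dotted lines all bins, 1 library per point. In T cells the Hox bins with 20 or more CpGs go from 6.09 to 29.1, and in muscle they lie between 5.46 and 6.74.

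At the start windows in T cells, 25 of 39 were over 2-fold higher at 28 than at 2 months and 0 over 2-fold lower, against 17.4% and 9.37% of the windows of all genes. HoxC had 7 of 9 and HoxD 8 of 9, and HoxA and HoxB 5 of 11 and 5 of 10. On the log2(level + 1) scale, among bins with a mean of at least 10 and an intermediate 20-m value, the 3 largest differences were in bins without a read at 2 months, where 3 reads would be a level of 3.05. Their rank depends on the added 1, and the Hoxc12 start bin given above had a larger difference in level. The Hoxa11 start, chr6:52246001-52246500 (33 CpGs), had 0, 8.52 and 56.8, at least 18.7-fold higher at 28 months. In Haglr, a long noncoding transcript of HoxD, chr2:74749501-74750000 had 0, 7.30 and 48.9, at least 16.1-fold higher. A coding exon of Hoxa10, chr6:52234001-52234500 (55 CpGs), had 0, 25.6 and 47.6, at least 15.6-fold higher. In muscle these 3 bins lay between 0 and 8.92. The largest T-cell falls were at chr6:52239001-52239500 in an intron of Hoxa10 (16.2, 13.4 and 2.64), chr11:96369001-96369500 beyond Hoxb1 (22.3, 13.4 and 3.97) and the Hoxa7 start, chr6:52218501-52219000 (59.9, 35.3 and 13.2). The last was the only start-site bin among the falls, and in muscle it had 61.0, 80.0 and 54.2.

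In muscle, the 28-m minus 2-m difference on the log2 scale was 0.06 in HoxA, 0.41 in HoxB, 0.40 in HoxC and 0.82 in HoxD. All bins of the flat 28-m library were 0.64 higher. The mean level was lower at 28 than at 2 months in HoxA, HoxB and HoxC, as given above. Relative to all bins the log2 difference was -0.59, -0.23, -0.24 and 0.17. Relative to the median of bins of equal CpG number it was 0.20, 0.47, 0.32 and 0.91, so the sign turned in HoxA, HoxB and HoxC. Of 1058 bins, 308 (29.1%) were over 2-fold higher and 102 (9.64%) lower at 28 months, against 36.7% and 7.65% of all bins. The same-sum scaling gave 430 (40.6%) and 45 (4.25%), against 49.3% and 2.72% of all bins. Quantile normalization gave 93 (8.79%) and 322 (30.4%), against 15.7% and 16.5%. So under each scaling, over all CpG numbers, the share higher was below that of all bins and the share lower above it. By CpG number on the deposited scale, this held with 0 to 4 CpGs only (43.7% and 3.74% against 50.3% and 2.33%). With 5 to 9 CpGs the shares were 22.8% and 5.28% against 10.1% and 12.1%. With 10 to 19 CpGs they were 16.2% and 15.0% against 3.74% and 41.4%. With 20 or more CpGs they were 28.4% and 18.1% against 28.4% and 39.6%. At the start windows 9 of 39 were over 2-fold higher and 2 lower, against 32.4% and 5.49% of all genes. Quantile normalization turned the sign of the muscle age difference in HoxA, HoxB and HoxC and left HoxD at 0.094, so no direction with age is read for muscle.

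Between 20-m and 2-m muscle, which were alike in their share of bins without a read, HoxD had the largest difference of the 4 clusters. Its mean was 0.78 higher at 20 months, against 0.09 over all bins, 0.06 in HoxA, 0.27 in HoxC and -0.24 in HoxB. Relative to all bins the HoxD value was 0.69, and 0.72 and 0.68 under the same-sum and quantile scalings. In HoxD, 72 of 210 bins (34.3%) were over 2-fold higher and 9 (4.29%) over 2-fold lower, against 14.4% and 9.72% of all bins. In HoxC 72 of 258 (27.9%) were higher and 35 (13.6%) lower, and in HoxB 34 of 360 were higher and 68 (18.9%) lower. The HoxD difference was largest near Hoxd9 to Hoxd13, at 1.44, where it was 1.08 at 28 months. The Hoxd12 start window, chosen after its values were seen, had 5.76, 55.9 and 11.1 in muscle and 16.2, 17.8 and 44.9 in T cells, so 20-m muscle and 28-m T cells were the high libraries.

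In single bins of muscle, the largest rises from 2 to 28 months with an intermediate 20-m value were at chr2:74717001-74717500 in an intron of Hoxd3 (3.64, 16.8 and 24.9), chr11:96242501-96243000 between genes (2.73, 10.9 and 16.6) and chr6:52210501-52211000 in an intron of Hoxa3 (4.55, 16.0 and 24.9). They held 4, 5 and 3 CpGs. The 28-m minus 2-m muscle difference was 1.07 on the log2 scale over all bins with 0 to 4 CpGs and -0.096 over all bins with 5 to 9 CpGs, the class of the HoxB bin. The largest falls were at chr6:52256501-52257000 between genes (30.0, 26.1 and 4.46), at the Hoxa2 start, chr6:52165001-52165500 (56.4, 18.5 and 11.5), and in an exon of Hotair, chr15:102945001-102945500 (66.4, 43.8 and 15.9). Hotair is the noncoding transcript between Hoxc12 and Hoxc11. In T cells the Hotair bin went the other way, with 6.09, 43.8 and 68.7 at the same ages.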

How the data were processed

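MBD-seq was measured in muscle and T cells and RNA-seq in muscle. The authors trimmed reads with Trim Galore, aligned them to mm10 with Bowtie2, counted them in 500-bp bins with bedtools and divided by DESeq2 size factors, so the deposited values are a signal of size-factor-normalized read counts. Whole reads were recovered for 100% of values (tolerance 0.01 read). RNA was aligned with Hisat2 by the methods (the labels list TopHat), counted with HTSeq and scaled with DESeq2. RNA libraries held 20203833 to 71115244 reads on genes, and 37.9% to 47.7% of entries were in rows that name no gene and were left out.

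Here log2(level + 1) was averaged over bins (Python 3.11.15, numpy 2.4.6). Annotation and sequence came from RefSeq GRCm38.p6, the mm10 assembly. Intervals are exact Poisson or exact binomial at 95%. Calls were checked on simulated reads. Named were the highest bin per cluster, the 2 most positive and 2 most negative start windows per cluster, the 5 longest runs per direction and the 3 largest rises and falls by age per tissue (mean of at least 10, 20-m value between). A gene and some sequences are not reported here. Members and lists were chosen with earlier results of these data known.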

Additional observations from a re-analysis of the deposited data

Results flagged for a closer look

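In 3 contrasts between neighbouring ages the mean log2 difference had opposite signs in muscle and T cells. From 2 to 28 months the mean log2 difference had the same sign in both tissues in each cluster on the deposited scale. The mean level itself did not: in HoxA, HoxB and HoxC it was lower at 28 months in muscle and higher in T cells. With 1 library per age behind each value, the contrast between the tissues was not tested. From 2 to 20 months HoxB was lower in muscle by a mean log2 difference of -0.24 and higher in T cells by 0.48. From 20 to 28 months HoxB was higher in muscle by 0.65, into the flat 28-m library, and lower in T cells, at -0.18. From 20 to 28 months HoxA had -0.0049 in muscle, close to 0, and 0.21 in T cells.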

How the results depend on the processing

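Of 230 values of the main comparisons under an alternative, 112 kept their sign and stayed within the spread over ages, the counting interval or 1.5 times the main count; each of the others is given here, and the cause of a change was not tested unless fewer bins entered. The negative HoxB difference between tissues turned only under the same-sum scaling, where all bins shift, and the T-cell differences from 2 to 28 months stayed positive in all 4 clusters under every alternative tried. For the RNA libraries, which alone carry replicate numbers, no paired analysis was possible by number because their levels entered no test. The MBD-seq pools are paired by age, and the exact permutation tests within ages are given with the tissue differences; these tests and those between ages were added after seeing the data. A level near 1 read has a wide counting error, and 1 pool per age gives no spread between mice.

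An added 0.25 in place of 1 gave a muscle minus T-cell difference of 0.85 in HoxC and 0.76 in HoxD and a 28-m minus 2-m difference in muscle of 0.21 in HoxA, 0.62 in HoxB, 0.70 in HoxC and 1.11 in HoxD. An added 0.25 in place of 1 also gave a 28-m minus 2-m difference in T cells of 0.82 in HoxA and 1.06 in HoxC. An added 5 gave a muscle minus T-cell difference of -0.036 in HoxA, 0.20 in HoxC and 0.25 in HoxD and a 28-m minus 2-m difference in muscle of -0.085 in HoxA, 0.17 in HoxB, 0.12 in HoxC and 0.43 in HoxD. An added 5 also gave a 28-m minus 2-m difference in T cells of 0.39 in HoxA, 0.57 in HoxC and 0.62 in HoxD, and a number of bins higher in muscle of 6 in HoxB, 37 in HoxC and 27 in HoxD. An added 5 further gave a number of bins past 2-fold from 2 to 28 months of 127 (muscle, higher), 52 (muscle, lower), 223 (T cells, higher) and 27 (T cells, lower). The bins with a mean of at least 5 gave a muscle minus T-cell difference of -0.041 in HoxA, 0.19 in HoxC and 0.35 in HoxD and a 28-m minus 2-m difference in muscle of -0.24 in HoxA, 0.14 in HoxB, 0.057 in HoxC and 0.67 in HoxD. The bins with a mean of at least 5 also gave a 28-m minus 2-m difference in T cells of 1.37 in HoxC and 1.14 in HoxD and a 20-m minus 2-m difference in muscle of -0.094 in HoxA. The bins with a mean of at least 5 further gave a number of bins higher in muscle of 15 in HoxB, 36 in HoxC and 29 in HoxD and a number of bins past 2-fold from 2 to 28 months of 143 (muscle, higher) and 56 (T cells, lower). The same-sum scaling gave a muscle minus T-cell difference of 1.04 in HoxA, 0.47 in HoxB, 1.23 in HoxC and 1.35 in HoxD and a 28-m minus 2-m difference in muscle of 0.50 in HoxA, 0.85 in HoxB, 0.84 in HoxC and 1.29 in HoxD. The same-sum scaling also gave a 28-m minus 2-m difference in T cells of 0.34 in HoxA, 0.065 in HoxB, 0.65 in HoxC and 0.64 in HoxD, and a number of bins higher in muscle of 94 in HoxA, 80 in HoxB, 105 in HoxC and 96 in HoxD. The same-sum scaling further gave a number of bins higher in T cells of 15 in HoxA, 25 in HoxB, 8 in HoxC and 6 in HoxD and a number of bins past 2-fold from 2 to 28 months of 45 (muscle, lower). The same-sum scaling in addition gave a start-window difference of 0.24 in HoxA and -0.57 in HoxD and a number of start windows higher in T cells of 1. Quantile normalization gave a muscle minus T-cell difference of -0.28 in HoxA, -0.88 in HoxB, -0.31 in HoxC and -0.049 in HoxD and a 28-m minus 2-m difference in muscle of -0.57 in HoxA, -0.45 in HoxB, -0.73 in HoxC and 0.094 in HoxD. Quantile normalization also gave a 20-m minus 2-m difference in muscle of -0.012 in HoxA, and a number of bins higher in muscle of 20 in HoxA, 2 in HoxB, 20 in HoxC and 21 in HoxD. Quantile normalization further gave a number of bins higher in T cells of 40 in HoxC and 22 in HoxD and a number of bins past 2-fold from 2 to 28 months of 93 (muscle, higher), 322 (muscle, lower) and 69 (T cells, lower). Levels relative to all bins of equal CpG number gave a 28-m minus 2-m difference in muscle of 0.20 in HoxA and a 28-m minus 2-m difference in T cells of 0.46 in HoxA. Bins under 10% masked gave a muscle minus T-cell difference of 0.087 in HoxD and a 28-m minus 2-m difference in muscle of 0.27 in HoxC. Bins under 10% masked also gave a 28-m minus 2-m difference in T cells of 0.88 in HoxA, 0.46 in HoxB and 1.28 in HoxD, and a number of bins higher in muscle of 16 in HoxA, 4 in HoxB, 23 in HoxC and 15 in HoxD. Bins under 10% masked further gave a number of bins higher in T cells of 19 in HoxA, 28 in HoxB and 9 in HoxC and a number of bins past 2-fold from 2 to 28 months of 109 (muscle, higher), 40 (muscle, lower), 159 (T cells, higher) and 37 (T cells, lower). Bins between the outermost Hox genes gave a 20-m minus 2-m difference in muscle of -0.014 in HoxA. Windows of 4 bins gave a muscle minus T-cell difference of -0.029 in HoxA and a 28-m minus 2-m difference in muscle of -0.11 in HoxA and 0.25 in HoxB. Windows of 4 bins also gave a 28-m minus 2-m difference in T cells of 0.76 in HoxA, 1.53 in HoxC and 1.20 in HoxD. Leaving out 2 months gave a number of bins higher in muscle of 45 in HoxB and 87 in HoxD, and a number of bins higher in T cells of 40 in HoxC and 25 in HoxD. Leaving out 20 months gave a number of bins higher in muscle of 56 in HoxB. The 2-m libraries alone (chosen after seeing the data) gave a muscle minus T-cell difference of 0.45 in HoxA and 0.79 in HoxC, and a number of bins higher in muscle of 73 in HoxA, 64 in HoxB, 107 in HoxC and 70 in HoxD. The 2-m libraries alone (chosen after seeing the data) also gave a number of bins higher in T cells of 34 in HoxC and 27 in HoxD. Start windows of 1000 bases either side gave a start-window difference of -0.64 in HoxD.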
